A study of Mus musculus with 29 samples.

Results

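The respiratory chain beyond complex I is built from a set of nuclear genes together with a few genes of the mitochondrial genome, and the nuclear set was followed here across brown adipose tissue (BAT) and gastrocnemius skeletal muscle (SkM) of mice under calorie restriction (CR) and/or treadmill exercise training (EX). The members were chosen by their symbols, namely the succinate dehydrogenase genes Sdha to Sdhd, the Uqcr genes, Cyc1, Cycs, the Cox genes that encode subunits 4 to 8 of cytochrome c oxidase, and the Atp5 genes. This rule found 48 of the 24770 gene symbols in the table. They comprised 4 subunits of complex II, 9 of complex III, cytochrome c itself (Cycs) and 15 subunits of complex V. Another 17 were counted with complex IV by their Cox symbols, among them Cox7a2l, whose place as a regular subunit was not examined here. For the other 2, Atp5s and Atp5sl, the symbols match but the products are not subunits of complex V. The rule itself used no expression value, although it was set with earlier results of these data known.

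All mice were wild-type C57BL/6J males and were young adults when the interventions began. Control mice were sedentary with free access to food, CR mice had their food lowered step by step below free intake, EX mice ran on a treadmill for several weeks with free access to food, and CREX mice received both. Every mouse was fasted for some hours before tissue was taken on the day after the last run, so all groups share that fast. BAT was sequenced from 3 control, 4 CR, 4 EX and 4 CREX samples, and SkM from 4 control, 3 CR, 4 EX and 3 CREX samples, which makes 29 RNA-seq libraries. Total counts ran from 21047242 to 24919377 in BAT and from 23050918 to 23425284 in SkM.

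As background, complex II passes electrons from succinate to ubiquinone and is also an enzyme of the citric acid cycle, complex III passes them from ubiquinol to cytochrome c, complex IV reduces oxygen with them, and complex V uses the resulting proton gradient to make ATP. Several subunits of complex IV exist as alternative isoforms from separate genes, among them a form typical of heart and muscle and a form typical of liver and most other tissues. In BAT the proton gradient is partly released as heat by Ucp1, whereas slow and oxidative muscle fibres are known for a high content of the same complexes.

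Levels are given as CPM, that is, counts scaled to a common library size with the TMM factors of a tissue, and fold changes on the log2 scale come from edgeR's quasi-likelihood test on the counts. CPM of BAT and SkM were thus scaled separately and are not on a common scale. The log2 difference from the fit gives the comparison between tissues. A gene is said to have changed where the Benjamini-Hochberg adjusted p over all genes tested was under 0.05, and a differentially expressed gene (DEG) also had to exceed a 1.5-fold change. After the filter on low counts, 47 members were tested in BAT and 46 in SkM. Cox7b2, a testis isoform, had 1 count in the SkM library CR 3 and none in any other, and it was tested in neither tissue, and Cox6b2, the testis isoform of subunit VIb, was too low to be tested in SkM.

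Some libraries stood apart before any comparison was made. In BAT, transcripts of skeletal muscle were present at very unequal levels, with the summed level of 10 muscle markers between 3.34 and 744.5 CPM in control, 21.8 and 1598 CPM in CR, 6.48 and 4226 CPM in EX, and 1148 and 6879 CPM in CREX libraries. The score of these markers, the mean of log2(CPM + 1), exceeded 8 in 3 BAT libraries, which were CREX 3 (8.92), EX 2 (8.30) and EX 3 (8.26). In SkM, a score of 8 slow fibre markers fell below 6 in 3 libraries, at 2.60 in CREX 3, 3.87 in CREX 2 and 5.51 in EX 1, against 6.71 in CREX 1 and 7.17 to 8.43 in the other 10 libraries. By summed level EX 1 did not stand apart, at 4035 CPM against 3240 to 4781 CPM in the other EX libraries. CREX 3 and CREX 2 summed to 242.5 and 354.7 CPM, and CREX 1 to 3459 CPM. The defining markers matched the labels by level. The 8 brown adipocyte markers used beside the members summed to between 10140 and 14970 CPM in BAT against 102.6 to 271 CPM in SkM. The 10 muscle markers summed to between 123000 and 210800 CPM in SkM. A marker is said to exceed 3 counts in a group where at least 1 library did. All 8 brown adipocyte markers did so in BAT, and all 10 muscle markers in SkM but also in BAT. Most counts and medians over all members that rest on these libraries are given with and without them. Counts by complex and the results of the other gene lists are given only with them.

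The plainest pattern in the members was which isoform each tissue used. The control libraries of BAT and SkM were compared first, and 33 of the 47 members passed the test, 24 of them higher in BAT and 9 higher in SkM, against 74.9% of all genes tested, of which 37.2% were higher and 37.7% lower in BAT. The median log2 difference of BAT over SkM was 0.45 for the members and 0.00 over all genes. By complex, 6 of 9 members of complex III and 12 of 16 of complex IV were higher in BAT. In complex V, 3 of 15 were higher in BAT and 6 were higher in SkM. Tissue and RNA preparation cannot be told apart from one another in this comparison, and more cells of a type cannot be told from more RNA per cell in any of these bulk samples.

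Cox6a1 and Cox6a2 encode the liver and the heart and muscle isoform of subunit VIa. Cox6a1 (chr5:115345652-115348958, 3 exons, GRCm38) stood at 1360.0, 1487 and 1506 CPM in the BAT controls and at 34.2, 20.6, 24.2 and 19.9 CPM in the SkM controls. These ranges are far apart, with a log2 difference of 5.60 (adjusted p = 3.66e-10, edgeR). Cox6a2 (chr7:128205435-128206366, 3 exons) showed the opposite order, with 2123, 1471, 1360.0 and 1025 CPM in SkM and 6.99, 0.926 and 0.0413 CPM in BAT, and a log2 difference of -9.43 (SE 1.52, adjusted p = 0.00205). The lowest BAT control held 1 count of Cox6a2, so that the size of this difference depends on how little could be counted.

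Read as a share of the summed level of both isoforms per kilobase of transcript, Cox6a2 made up 97.7% to 98.7% of subunit VIa in the 14 SkM libraries and 0.0023% to 4.83% in the 15 BAT libraries. The subunit VIII pair behaved differently. Cox8b, the heart and muscle isoform, made up 89.9% to 93.0% of the pair in SkM but also 41.5% to 51.3% in BAT, where Cox8b and the liver isoform Cox8a were thus similar in level. In the subunit VIIa pair, Cox7a1 is the heart and muscle isoform and also a common marker of brown fat. It made up 54.7% to 65.9% in BAT and 50.03% to 73.9% in SkM, so that the ranges over all groups overlapped. Within the unrestricted groups they did not. Its share was 60.85% to 65.9% in BAT and 72.5% to 73.9% in SkM controls, and 60.84% to 65.7% and 71.5% to 73.9% in EX libraries. Cox4i2, the lung isoform of subunit IV, stayed below 1% of the pair with Cox4i1 in both tissues, at 0.0817% to 0.271% in BAT and 0.236% to 0.622% in SkM.

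**Figure D1:**
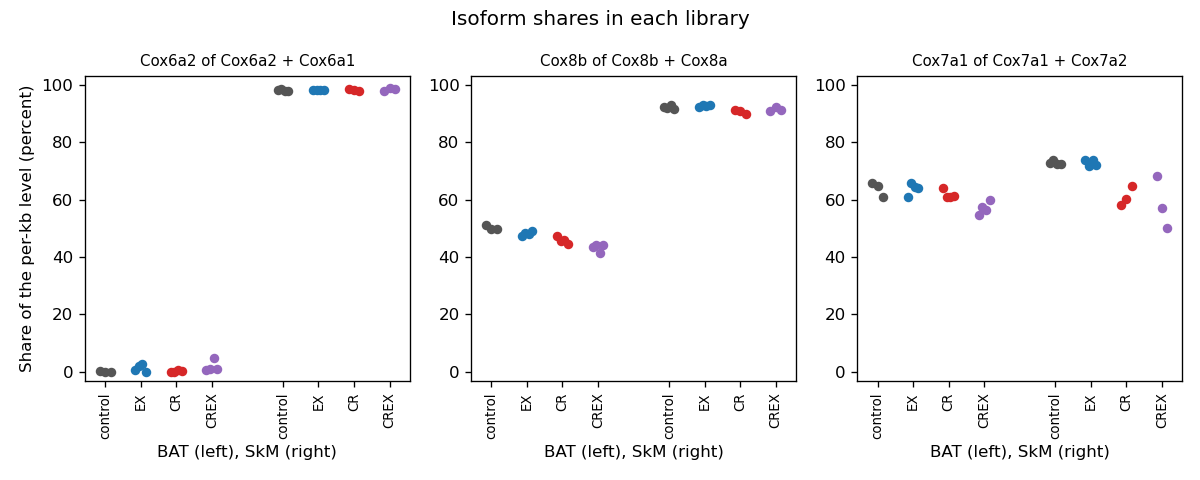
Share of one isoform in the summed per-kilobase level of its pair (percent, y axis) in each library, by group (x axis, BAT on the left and SkM on the right of each panel). Points are libraries. Cox6a2 lies near 98% in SkM and below 5% in BAT, Cox8b near 92% in SkM and between 41.5% and 51.3% in BAT, and Cox7a1 is lower in the CR and CREX libraries of SkM than in control and EX.

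Subunit c of complex V forms the rotating ring of the enzyme and is encoded by Atp5g1, Atp5g2 and Atp5g3, whose mature proteins are the same. All were higher in the SkM controls. Atp5g1 stood at 965, 763, 756 and 561 CPM in SkM and at 9.31, 4.99 and 4.95 CPM in BAT (log2 difference -7.17, adjusted p = 1.82e-08), while Atp5g3 (log2 difference -2.23, adjusted p = 4.08e-08) and Atp5g2 (log2 difference -0.72, adjusted p = 0.000809) differed less. Atp5j, which encodes the coupling factor F6 of the stalk, was also higher in SkM (log2 difference -2.12, adjusted p = 6.08e-07). Sdha and Sdhd, the catalytic and an anchor subunit of complex II, were higher in BAT, with log2 differences of 1.21 and 1.16.

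Promoters of members on which the isoform and CR results turn are shown here so that the isoforms can be set side by side. RefSeq promoters on GRCm38.p6, 300 bases long with 250 before and 50 after the transcript start, were found for 35 of the 48 members, and none was given for Cox6a2, Cox4i1 or Cox4i2. The letters of 6 motifs known from respiratory or muscle genes were searched on both strands, and their matches are in capitals.
Cox6a1 (chr5:115348909-115349208, minus strand, NRF1 and GABP letters): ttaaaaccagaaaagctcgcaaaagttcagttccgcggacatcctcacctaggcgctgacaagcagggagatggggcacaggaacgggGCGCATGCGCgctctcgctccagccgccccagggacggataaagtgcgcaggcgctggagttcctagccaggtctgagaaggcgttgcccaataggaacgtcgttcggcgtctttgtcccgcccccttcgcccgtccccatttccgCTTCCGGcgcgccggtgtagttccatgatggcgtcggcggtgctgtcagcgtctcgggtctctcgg
Cox8a (chr19:7217567-7217866, minus strand, GABP letters): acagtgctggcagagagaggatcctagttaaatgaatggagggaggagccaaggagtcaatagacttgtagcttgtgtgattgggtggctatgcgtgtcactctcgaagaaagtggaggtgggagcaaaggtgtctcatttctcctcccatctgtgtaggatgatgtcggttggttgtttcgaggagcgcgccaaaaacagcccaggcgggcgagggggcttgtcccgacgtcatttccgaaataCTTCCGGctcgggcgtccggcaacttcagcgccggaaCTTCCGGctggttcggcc
Cox8b (chr7:140900397-140900696, minus strand, E-box letters): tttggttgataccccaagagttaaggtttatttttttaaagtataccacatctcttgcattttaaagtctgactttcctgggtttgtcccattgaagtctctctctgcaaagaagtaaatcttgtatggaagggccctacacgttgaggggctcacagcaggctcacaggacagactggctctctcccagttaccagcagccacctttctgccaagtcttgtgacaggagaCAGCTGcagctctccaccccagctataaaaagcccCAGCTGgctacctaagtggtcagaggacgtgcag
Cox7a1 (chr7:30183921-30184220, plus strand, no match): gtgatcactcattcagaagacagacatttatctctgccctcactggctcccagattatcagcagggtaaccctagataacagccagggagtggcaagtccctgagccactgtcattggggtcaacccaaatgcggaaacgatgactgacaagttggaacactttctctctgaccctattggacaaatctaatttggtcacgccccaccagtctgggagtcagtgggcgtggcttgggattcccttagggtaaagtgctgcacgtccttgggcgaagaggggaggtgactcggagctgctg
Cox7a2 (chr9:79759804-79760103, minus strand, no match): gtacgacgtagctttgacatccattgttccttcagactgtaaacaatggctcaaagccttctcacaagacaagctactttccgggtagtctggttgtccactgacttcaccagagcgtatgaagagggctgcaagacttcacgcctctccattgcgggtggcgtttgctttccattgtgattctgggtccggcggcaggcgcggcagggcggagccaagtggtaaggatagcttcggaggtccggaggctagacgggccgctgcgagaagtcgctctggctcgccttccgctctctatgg
Sdhb (chr4:140961021-140961320, plus strand, GABP letters): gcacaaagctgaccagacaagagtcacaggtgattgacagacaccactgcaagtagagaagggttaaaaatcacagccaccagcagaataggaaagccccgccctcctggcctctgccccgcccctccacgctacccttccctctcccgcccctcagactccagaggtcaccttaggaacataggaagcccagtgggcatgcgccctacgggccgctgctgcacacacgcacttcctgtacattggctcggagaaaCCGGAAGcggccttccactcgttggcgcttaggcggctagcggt
Atp5g3 (chr2:73911277-73911576, minus strand, ERR letters): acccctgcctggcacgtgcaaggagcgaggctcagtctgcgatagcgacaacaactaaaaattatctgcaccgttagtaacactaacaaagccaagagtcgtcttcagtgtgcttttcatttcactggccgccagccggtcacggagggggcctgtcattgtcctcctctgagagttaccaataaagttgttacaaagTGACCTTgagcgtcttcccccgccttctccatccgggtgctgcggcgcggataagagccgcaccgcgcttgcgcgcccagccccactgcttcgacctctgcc

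The letters of NRF1 (GCGCATGCG) were in 7 of the 38 member promoters (18.4%) against 1.75% of all 32851 promoters of the same length, those of GABP (CCGGAAG) in 12 (31.6% against 8.86%), those of the oestrogen-related receptors (ERR, AAGGTCA) in 5 (13.2% against 4.72%) and those of YY1 (AAGATGGCG) in 2 (5.26% against 1.403%). The E-box CAGCTG was in 2 member promoters (5.26% against 16.3%), Cox8b and Atp5b, and the MEF2 letters CTATTTTTA were in 0 against 0.493% of all. No matches of different motifs overlapped. In Cox6a1 the NRF1 letters were matched on both strands over 1 stretch. Of the isoform pair of subunit VIII, the liver form held GABP letters and the muscle form E-box letters in this window. These are matches of letters, not shown sites, and the promoters of Cox7a1 and Cox7a2 without a match say only that these letters are not in these windows.

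CR in SkM was examined within sedentary mice (CR vs. control) and within trained mice (CREX vs. EX), which share no libraries. In sedentary mice 2 of 46 members passed the test, both lower under CR, against 14% of all genes called and 7.67% called lower. These were Cox7a1, a DEG (5.32% of all genes were downregulated DEGs), and Atp5s, whose product is a mitochondrial factor B-like protein. In trained mice 24 of 46 members fell, against 13.6% of all genes called and 6.96% called lower. Of the 46, 13 were downregulated DEGs, against 5.17% of all genes. The median log2 fold change of the members was -0.22 in sedentary and -0.48 in trained mice, and 0.00 over all genes in both. No member was called higher in either comparison.

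The 24 members that fell in trained mice were spread over the complexes, with 2 of 4 tested in complex II, 5 of 9 in complex III, Cycs, 8 of 15 in complex IV, 7 of 15 in complex V and Atp5s. In 37 of 46 members, all CREX libraries were below all EX libraries, as in 14.5% of all genes. Members with a fold change above 0 were Atp5g2 (0.12) and Cox6a2 (0.07), and neither passed the test.

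These counts depended on few libraries. CREX 2, with a slow fibre score of 3.87, had the lowest level of all 14 SkM libraries in 38 of 46 members, and the median ratio of its members to the control mean was 0.602, against 0.807 in CREX 1 and 0.75 in CREX 3. CREX 1, whose slow fibre score was 6.71, was still below every EX library in 40 of 46 members, CREX 2 in 45 and CREX 3 in 41, against 28.5%, 34.6% and 35.7% of all genes. Without the 3 SkM libraries of lowest slow fibre score, CREX 1 alone remained against 3 EX libraries, and on the assumption that it varies as the EX libraries do, 1 member was called (Cox7a1, log2 fold change -0.71, adjusted p = 0.0124, edgeR) while 43 of 46 were lower with a median of -0.32. With the slow fibre score as a covariate 0 members were called in CREX vs. EX and 44 of 46 were lower (median -0.40). Leaving out 1 library at a time gave 38 called members without CREX 1, 5 without CREX 2, 15 without CREX 3, 6 without EX 1, EX 2 or EX 4, and 5 without EX 3. The share of all genes called in each of these reduced fits is not given here, so these counts do not set the members apart from other genes.

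**Figure D2:**
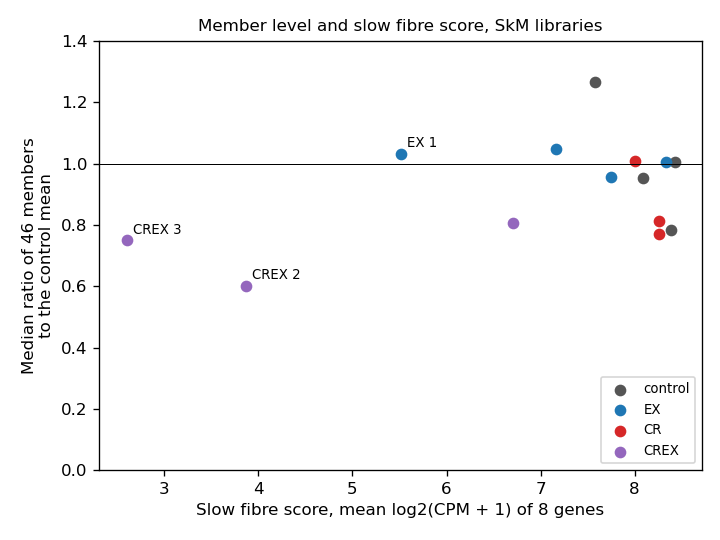
Median ratio of the 46 tested members to their control mean (y axis) against the slow fibre score, the mean log2(CPM + 1) of 8 genes (x axis), for each of the 14 SkM libraries, coloured by group. CREX 2 and CREX 3 lie at the lowest scores with ratios of 0.602 and 0.75, and EX 1 follows at a score of 5.51 with a ratio of 1.03. At scores of 6.71 and above, ratios were 0.807 in CREX 1, 0.772 in CR 2, 0.813 in CR 3 and 0.785 in control 4. They were 1.01 in CR 1 and up to 1.27 in control 1.

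Variation among the SkM controls bears on CR vs. control. Control 1 was the highest of its group in 43 of 46 members, with a median ratio of 1.27 to the control mean, and control 4 was the lowest in 42, with a ratio of 0.785. CR 1 (1.01) was at the control mean, whereas CR 2 (0.772) and CR 3 (0.813) were near control 4. In 9 of 46 members all CR libraries were below all controls, as in 14.2% of all genes. The 2 calls fell to 0 without CR 2, without CR 3 or without control 1, 2 or 3, and DESeq2 called 4 members.

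Cox7a1 (chr7:30184171-30186030, 4 exons) had the largest fall of the members tested in SkM. It stood at 205, 171, 147 and 115 CPM in control, 169, 149, 172 and 176 CPM in EX, 112, 78.4 and 99.4 CPM in CR, and 101, 56.2 and 62.6 CPM in CREX libraries. Every CR and CREX library was thus below every control and EX library, although CR 1 and control 4 were close. The log2 fold change was -0.71 (SE 0.20, adjusted p = 0.0395, edgeR) in sedentary and -1.18 (SE 0.20, adjusted p = 0.00964) in trained mice. Its liver counterpart Cox7a2 stood at 129, 101, 93.3 and 73.1 CPM in control and 135, 87.1 and 91.3 CPM in CR, overlapping ranges, and its fold changes of 0.08 and -0.29 did not pass the test.

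Sdhb, the iron-sulfur subunit of complex II, stood at 458, 396, 351 and 313 CPM in control, 302, 276 and 296 CPM in CR, 393, 388, 383 and 397 CPM in EX, and 308, 156 and 186 CPM in CREX. CR libraries lay below all controls and CREX libraries below all EX libraries, and the EX libraries were nearly equal. The fall was called in trained mice (log2 fold change -0.85, SE 0.21, adjusted p = 0.031) and not in sedentary mice (-0.38, adjusted p = 0.11). Sdhc, one of the membrane anchors of complex II, fell in trained mice by 0.55 on the log2 scale (adjusted p = 0.0396).

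In complex III, Uqcrq, a small structural subunit, stood at 318, 287, 324 and 325 CPM in EX and 218, 145 and 194 CPM in CREX libraries, with no overlap (log2 fold change -0.75, SE 0.15, adjusted p = 0.0143). Uqcr11 fell by 0.58 (adjusted p = 0.0168), Cyc1, the cytochrome c1 subunit, by 0.61 (adjusted p = 0.0421), and Uqcrc2 and Uqcr10 by 0.57 and 0.42. No complex III gene was called in sedentary mice. Cycs, the mobile carrier between complexes III and IV, stood at 697, 576, 578 and 437 CPM in control, 424, 373 and 399 CPM in CR, 618, 558, 563 and 641 CPM in EX, and 456, 307 and 382 CPM in CREX. Within each arm the restricted libraries were below the unrestricted ones, with log2 fold changes of -0.52 (adjusted p = 0.0556, not called) in sedentary and -0.64 (adjusted p = 0.0237) in trained mice.

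In complex IV, Cox4i1, the common isoform of subunit IV, stood at 526, 517, 519.7 and 536 CPM in EX and at 371, 269.8 and 315 CPM in CREX (log2 fold change -0.72, SE 0.13, adjusted p = 0.011), while in sedentary mice 473, 370.4 and 390.2 CPM under CR overlapped 565, 483, 465 and 389 CPM in control. Cox5a (-0.60), Cox5b (-0.59), Cox6c (-0.66), Cox6b1 (-0.51), Cox7b (-0.42) and Cox8b (-0.47) also fell in CREX vs. EX. Cox6a2 and Cox6a1, both isoforms of subunit VIa, did not pass the test in either comparison. Cox6a2 stood at 1392, 1222, 1372 and 1268 CPM in EX and at 1419, 1176 and 1538 CPM in CREX, so that this abundant muscle isoform did not follow Cox7a1.

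In complex V, Atp5k, a membrane subunit, had the smallest p of the members in trained mice, with 41.5, 34.8, 41 and 41.4 CPM in EX and 27, 22.9 and 25.3 CPM in CREX (log2 fold change -0.66, SE 0.11, adjusted p = 0.00863). Atp5j fell by 0.73 (adjusted p = 0.0124). Atp5g3 stood at 342, 289, 302 and 328 CPM in EX and 246, 149 and 156 CPM in CREX (log2 fold change -0.78, SE 0.18, adjusted p = 0.0231). By contrast Atp5g2, which encodes the same ring subunit, stood at 184, 176, 184 and 206 CPM in EX and 170.0, 202 and 237 CPM in CREX, overlapping ranges. Atp5h (-0.59), Atp5j2 (-0.50), Atp5e (-0.53) and Atp5l (-0.38) were the other complex V members that fell, and the catalytic subunits Atp5a1 (-0.25) and Atp5b (-0.31) did not pass the test.

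**Figure D3:**
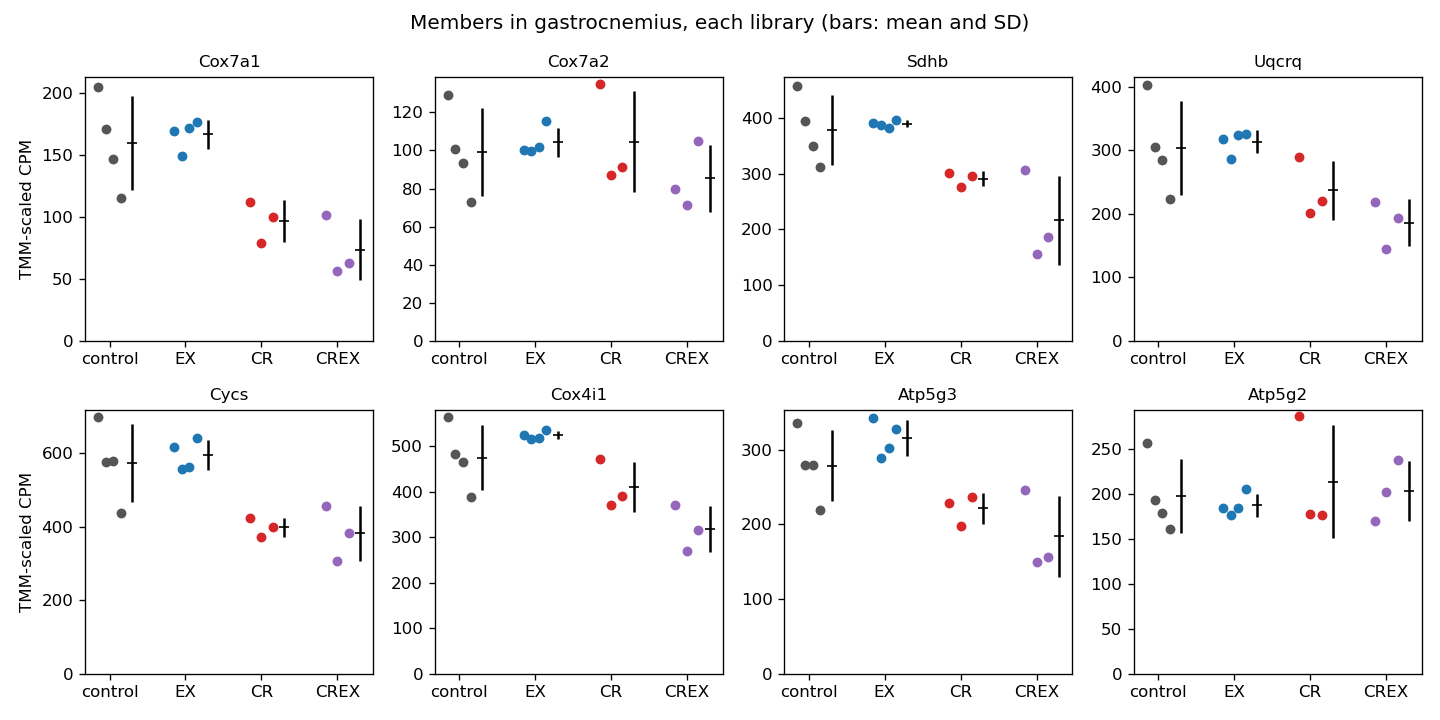
TMM-scaled CPM (y axis, from 0) of Cox7a1, Cox7a2, Sdhb, Uqcrq, Cycs, Cox4i1, Atp5g3 and Atp5g2 in each SkM library by group (x axis). Points are libraries, bars the mean and SD. Cox7a1, Sdhb and Cycs are lower in CR and CREX than in control and EX, whereas the groups overlap for Cox7a2 and Atp5g2.

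Averaging the CR effect over sedentary and trained mice in 1 fit over the 4 groups of SkM called 26 of 46 members, all lower, against 33.5% of all genes called and 17% called lower. The median was -0.35 against 0.00 over all genes. Of the 46 members tested, 3 were downregulated DEGs (Cox7a1, Cox4i2 and Sdhb), against 8.13% of all genes tested. Cox7a1 fell by 0.95 (SE 0.15, adjusted p = 0.000298), Cycs by 0.58 (adjusted p = 0.00119), Sdhb by 0.62 (adjusted p = 0.00227) and Atp5s by 0.43 (adjusted p = 0.000249). Without the 3 libraries of lowest slow fibre score 5 members stayed called (Atp5s -0.44, Cox7a1 -0.73, Cycs -0.46, Sdhb -0.38 and Cox4i2 -0.63), while 15.65% of all genes were called and 43 of 46 members were lower with a median of -0.28. With the slow fibre score as a covariate 13 were called and 46 of 46 were lower. The count was 17 without CR 2, 16 without CR 3 and 16 without CREX 2. The summed level of the 10 muscle markers moved the other way. It was 123000 to 137500 CPM in control and 135000 to 154100 CPM in EX against 154600 to 210800 CPM in CR and 156500 to 202500 CPM in CREX. Taken singly, 8 of these markers were higher and 2 lower in the average CR effect (lowest -0.42), and 5 were called, all higher. Their part in the member results was not tested. The 6 fibroblast markers summed to 304 to 389.6 CPM in control and 276 to 432 CPM in EX against 234 to 303 CPM in CR and 257 to 293 CPM in CREX, and the 7 macrophage markers to between 13.2 and 39.1 CPM over all SkM groups.

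Cox4i2 was low in both tissues and lower under CR in both. In SkM it stood at 2.39, 2.14, 2.4 and 2.16 CPM in control, 1.45, 1.46 and 1.6 CPM in CR, 1.58, 1.63, 3.12 and 2.42 CPM in EX, and 1.54, 0.862 and 0.714 CPM in CREX. Restricted libraries were below unrestricted ones in both arms except that CR 3 lay within the EX range. The average CR effect was -0.83 (adjusted p = 0.00424) in SkM. In BAT the values were 2.01, 1.73 and 2.72 CPM in control, 1.43, 0.993, 1.32 and 1.59 CPM in CR, 1.89, 2.06, 1.82 and 2.41 CPM in EX, and 1.52, 1.37, 1.4 and 1.3 CPM in CREX, and all restricted libraries were below all others, with an average CR effect of -0.62 (adjusted p = 0.00268). All 6 endothelial markers exceeded 3 counts, and their summed level was lower in the same groups, at 235 to 299.5 CPM in control and 234 to 294 CPM in EX against 149 to 191 CPM in CR and 102 to 207 CPM in CREX in SkM, and at 325 to 355 CPM in control and 283 to 334 CPM in EX against 235 to 294 CPM in CR and 238 to 280.2 CPM in CREX in BAT. Their part in the Cox4i2 result was not tested.

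In BAT the members moved little under CR. In sedentary mice 2 of 47 were called, both higher, against 20.9% of all genes called and 9.99% called higher, and the median log2 fold change was 0.10 against 0.00 over all genes. In trained mice 2 were called, 1 higher and 1 lower, against 8.01% of all genes called, 3.71% called higher and 4.3% called lower, with a median of 0.03. CREX vs. EX holds all 3 BAT libraries of highest muscle score, and without them the median was -0.05, 30 of 47 members were lower and 2.363% of all genes were called, with Atp5g3 (0.46) still called, Cox8b no longer called and Atp5k (-0.44) added. DESeq2 called 7 members in CR vs. control and 4 in CREX vs. EX, against 18.36% and 11.53% of all genes. In CR vs. control all CR libraries were above all controls in 15 members (16.6% of all genes) and below them in 2 (16.8% of all genes). The corresponding numbers in CREX vs. EX were 4 (8.86%) and 3 (8.87%).

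The members called in sedentary BAT were Atp5l, a membrane subunit of complex V, and Cox4i1. Atp5l stood at 501, 447 and 526 CPM in control and 589.6, 655, 554 and 580.1 CPM in CR (log2 fold change 0.28, SE 0.08, adjusted p = 0.0353), with all CR libraries above all controls. Cox4i1 rose from 1040.0, 1007 and 1045 CPM to 1162, 1268, 1149 and 1146 CPM (log2 fold change 0.20, adjusted p = 0.0496), again without overlap. Both calls were lost without CR 1, CR 2, CR 4, control 1 or control 2, and that of Cox4i1 also without control 3. In their place Cox8b (-0.25) was called without CR 2 and Atp5g1 (1.09) without control 1. In trained BAT, Atp5g3 rose from 69.7, 72.7, 67.5 and 61.9 CPM in EX to 87.4, 88.5, 95.8 and 95.3 CPM in CREX (log2 fold change 0.43, adjusted p = 0.00745). Cox8b fell from 726, 695, 658 and 804 CPM to 598, 620.3, 515 and 584 CPM (log2 fold change -0.32, adjusted p = 0.0416). Both pairs of groups were separate. The call of Atp5g3 held without any 1 library, whereas that of Cox8b was lost without any 1 of the 8 libraries (adjusted p = 0.0505 to 0.0969, edgeR).

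Averaged over sedentary and trained mice, CR changed 12 of 47 members in BAT, 8 upward and 4 downward, against 33.4% of all genes called, 15.9% higher and 17.5% lower. The median was 0.08 against 0.00 over all genes. The members that rose were Atp5g3 (0.28, adjusted p = 0.0011), Atp5c1 (0.16), Atp5f1 (0.16), Atp5o (0.14), Uqcrc1 (0.16), Uqcrc2 (0.15), Uqcr10 (0.22) and Cox4i1 (0.13), that is, 4 subunits of complex V, 3 of complex III and the common isoform of subunit IV. Those that fell were Cox8b (-0.26, adjusted p = 0.00173), Cox4i2 (-0.62), Cox7a1 (-0.17, adjusted p = 0.0143) and Atp5k (-0.17), 3 of which are isoforms of complex IV. Cox4i2 was the 1 downregulated DEG among the 47 members tested, against 7.83% of all genes tested. Apart from Cox4i2 the called changes lay between -0.26 and 0.28. No member of complex II was called, and 7 members were called without control 2. Without the 3 libraries of highest muscle score 8 members were called, of which Atp5g3, Atp5c1, Atp5o, Cox8b, Cox4i2, Cox7a1 and Atp5k were among the 12 and Atp5g1 was added. These were 4 higher and 4 lower, with a median of 0.04 and 24.5% of all genes called. Markers of other cell types were read in the same libraries. The summed level of 6 fibroblast markers was 216 to 254 CPM in control and 236 to 918 CPM in EX against 139.5 to 177 CPM in CR and 163 to 184 CPM in CREX, and that of 7 macrophage markers 53.3 to 57.2 CPM in control and 57.2 to 90.7 CPM in EX against 31.2 to 49.4 CPM in CR and 31.5 to 63.4 CPM in CREX, all above 3 counts. Their part in the member results was not tested. The 8 brown adipocyte markers that are no members summed to 13150 to 14970 CPM in control and 12120 to 13530 CPM in EX against 12330 to 13100 CPM in CR and 10140 to 12580 CPM in CREX. Of these, 2 fell, namely Ucp1, the uncoupling protein, by 1.01 (adjusted p = 8.3e-05) and Ppargc1a by 0.82, while the fatty acid elongase Elovl3 rose by 0.89, and the other 5 were not called.

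**Figure D4:**
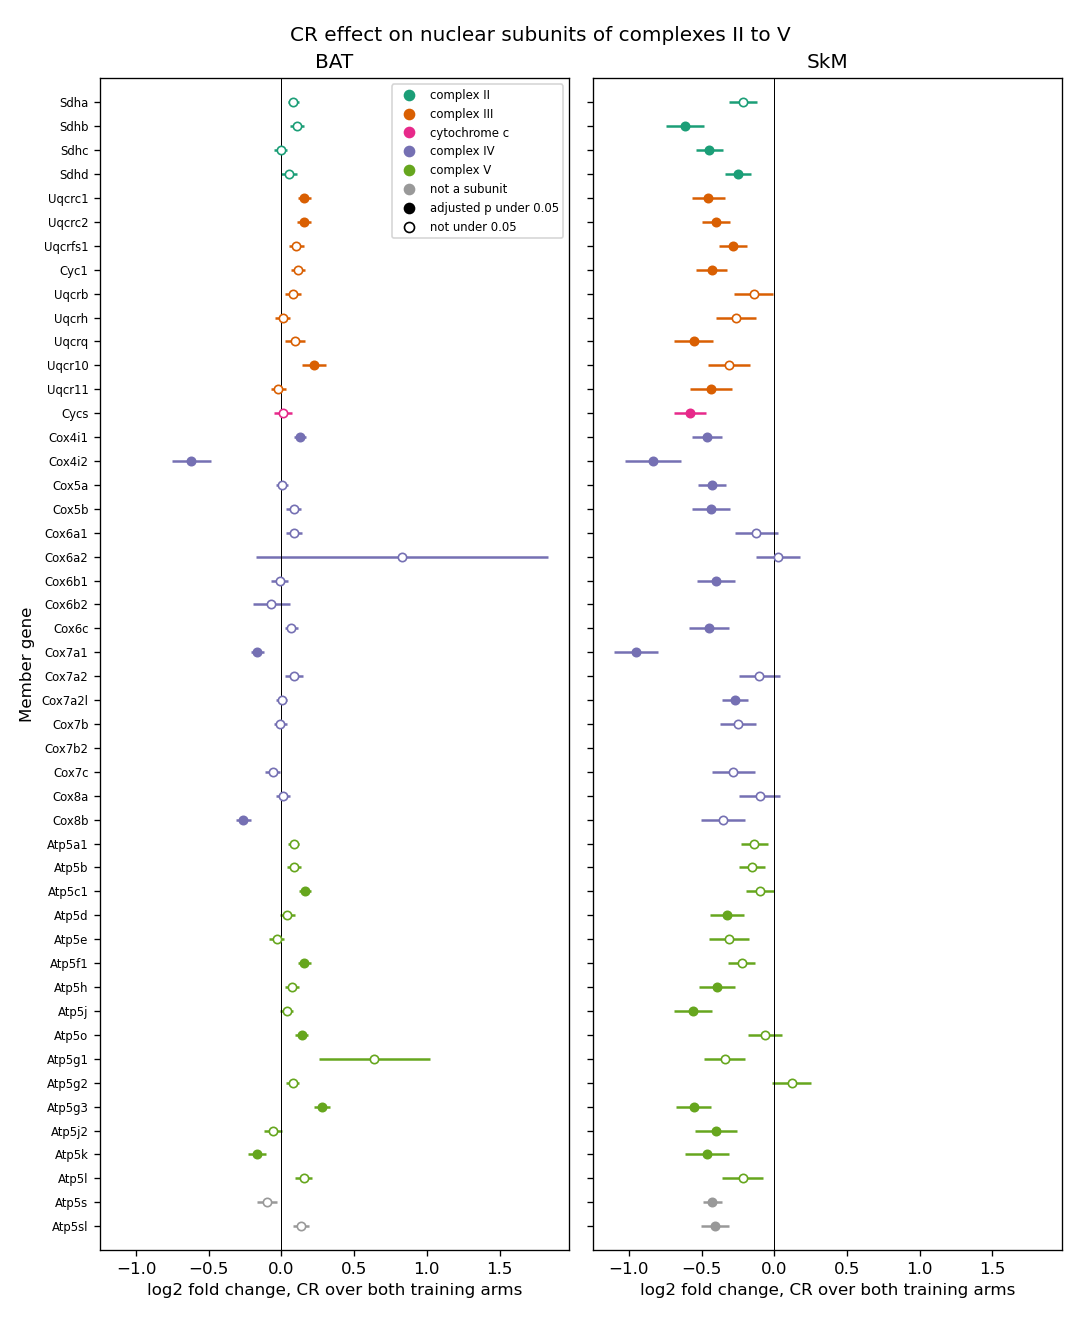
Log2 fold change of CR averaged over sedentary and trained mice (x axis, bars are standard errors) for each member (y axis), BAT on the left and SkM on the right. Filled points passed an adjusted p of 0.05 and colours give the complex. In SkM 44 of 46 points lie below 0, while in BAT 34 of 47 lie above 0 and most are close to it.

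The CR effects of the tissues were then compared directly in 1 fit over all libraries. The labels do not give the mouse, so BAT and SkM libraries were treated as independent though some may share a mouse. The effect in SkM was lower than that in BAT in 46 of 47 members, and the difference passed the test in 23, all lower in SkM, against 20.5% of all genes called and 10.1% called lower. In 8 of the 47 the difference was called lower in SkM and exceeded 1.5-fold, against 4.83% of all genes. The median difference was -0.37 against 0.02 over all genes. By complex the test was passed by 3 of 4 members of complex II, 6 of 9 of complex III, Cycs, 6 of 16 of complex IV, 5 of 15 of complex V and both Atp5s and Atp5sl. The smallest p belonged to Atp5g3 (difference -0.83, adjusted p = 8.26e-05), which rose in BAT and fell in SkM. Cox4i1 (-0.59), Uqcrc1 (-0.61) and Uqcrc2 (-0.56) likewise rose in BAT and fell in SkM. Cox7a1 fell in both, more in SkM (difference -0.79, adjusted p = 0.000887), and for Cox4i2 the difference was not called. Without the 3 BAT libraries of highest muscle score and the 3 SkM libraries of lowest slow fibre score, which leaves 1 CREX library in SkM, 7 members were called (Atp5g3 -0.63, Cox7a1 -0.54, Cox4i1 -0.46, Sdhb -0.42, Atp5s -0.36, Atp5sl -0.34 and Atp5g1 -1.17), 45 of 47 were lower in SkM with a median of -0.28, and 9.256% of all genes were called.

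Ratios of isoforms within a library are free of scaling between libraries, and they were compared with exact permutation tests over libraries, 40 tests in all, of which 4 passed after Benjamini-Hochberg adjustment. In SkM the ratio of Cox7a1 to Cox7a2 was lower under CR over both arms by 0.85 on the log2 scale (exact two-sided permutation test stratified by training, p = 0.000816, the smallest it can give, adjusted p = 0.0109). Cox7a1 made up 72.9% ± 0.684 (SD, n = 4) of the pair in control, 72.8% ± 1.27 (n = 4) in EX, 60.97% ± 3.29 (n = 3) in CR and 58.3% ± 9.10 (n = 3) in CREX. The restricted libraries ranged from 50.03% in CREX 3 to 68.1% in CREX 1 and did not reach the unrestricted ones, the lowest of which was at 71.5%. Without the 3 SkM libraries of lowest slow fibre score the ratio was lower by 0.54 (exact permutation test, p = 0.00714, the smallest possible with these numbers, adjusted p = 0.0714). In BAT the same ratio was lower by 0.26 and did not pass after adjustment (exact permutation test, adjusted p = 0.0522), although it did without CR 1 (adjusted p = 0.0457, permutation) or control 3 (adjusted p = 0.00952, permutation).

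Cox8b against Cox8a showed a small difference of the same sign in both tissues. In BAT the ratio was lower under CR by 0.27 (exact permutation test, p = 0.000408, the smallest possible, adjusted p = 0.00816). The share of Cox8b was 50.3% ± 0.893 (n = 3) in control, 48.2% ± 0.830 (n = 4) in EX, 45.8% ± 1.11 (n = 4) in CR and 43.3% ± 1.27 (n = 4) in CREX, with no overlap between restricted and unrestricted libraries within an arm. In SkM it was lower by 0.25 (exact permutation test, adjusted p = 0.0327), from 92.1% ± 0.574 (n = 4) to 90.7% ± 0.673 (n = 3) in sedentary and from 92.6% ± 0.410 (n = 4) to 91.3% ± 0.847 (n = 3) in trained mice. The SkM ratio no longer passed without CR 3, CREX 1, CREX 3, EX 2, EX 3 or EX 4, with differences of -0.22 to -0.26 (exact permutation tests, adjusted p = 0.0522 to 0.061). Without the 3 libraries of lowest slow fibre score in SkM and the 3 of highest muscle score in BAT, the Cox8b ratio was lower by 0.33 in SkM and by 0.26 in BAT (exact permutation tests, adjusted p = 0.0714 and 0.0571). Cox4i2 against Cox4i1 was lower in BAT by 0.75 (exact permutation test, adjusted p = 0.00816), and by as much without the 3 libraries of highest muscle score (exact permutation test, adjusted p = 0.0571). No single comparison of 2 groups passed after adjustment, where the smallest two-sided p that the group sizes allow is 0.0286, or 0.1 for 3 against 3 libraries.

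Training alone gave no call. EX vs. control uses the same control libraries as CR vs. control, and CREX vs. CR the same CREX libraries as CREX vs. EX, so these comparisons are given side by side and not set against each other. In BAT, EX vs. control called 0 of 47 members (edgeR), against 0% of all genes, with 3 members at an unadjusted p under 0.05 and 0 called by DESeq2. In SkM it called 0 of 46, against 0.093% of all genes, with 0 members at an unadjusted p under 0.05 and 0 called by DESeq2. The medians were -0.04 in BAT and 0.03 in SkM, and that in BAT turned to 0.04 without the 3 libraries of highest muscle score. Averaged over fed and restricted mice, EX called 0 members in BAT (0.0215% of all genes), with 23 at an unadjusted p under 0.05 (10.97% of all genes). Of the 47, 39 were lower with a median of -0.10, and 32 with a median of -0.04 without the 3 libraries of highest muscle score. DESeq2 called 5 (0.8469% of all genes), which were Atp5e, Atp5o, Cox6c, Cox7a1 and Cox8b, all lower. In SkM the average effect of EX called 0 (0.0294% of all genes), with 0 at an unadjusted p under 0.05 and 0 by DESeq2. There 46 of 46 were lower with a median of -0.11, and 27 with a median of -0.04 without the 3 libraries of lowest slow fibre score.

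Adding training to restriction gave mostly lower values without a call. In BAT, CREX vs. CR called 0 of 47 members (0.00763% of all genes called), yet 37 were lower, the median was -0.16 against 0.00 over all genes, 27 had an unadjusted p under 0.05 (7.634% of all genes) and all CREX libraries were below all CR libraries in 24 members (3.06% of all genes). DESeq2 called 5, against 0.4462% of all genes, all lower (Atp5h, Cox5a, Cox5b, Cox7c and Cox8b). With the muscle score as a covariate the median was -0.10, and without the 3 libraries of highest muscle score it was -0.16 with 34 lower. In SkM, CREX vs. CR called 0 of 46 (0% of all genes), with 46 lower, a median of -0.26, 1 member at an unadjusted p under 0.05 and 0 by DESeq2. Without the 3 libraries of lowest slow fibre score 28 were lower with a median of -0.07.

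The interaction of CR and EX, that is, the difference between the CR effects of trained and sedentary mice, was called for 0 members in either tissue, as for 0% of all genes. It had an unadjusted p under 0.05 for 7 members in BAT and 1 in SkM, and DESeq2 called 0 in both. In SkM it was below 0 in 44 of 46 members with a median of -0.29, and in 34 with a median of -0.11 without the 3 libraries of lowest slow fibre score. In BAT the median was -0.10, and -0.14 without the 3 libraries of highest muscle score. The 24 calls in trained mice against 2 in sedentary mice are therefore not shown to differ.

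Cox6a2 in BAT was highest where muscle transcripts were. Cox6a2 ranged from 0.0413 CPM in control 3, where muscle creatine kinase (Ckm) was at 0.33 CPM, to 78.2 CPM in CREX 3, where Ckm was at 806 CPM. Expressed as a percent of Ckm, Cox6a2 was 3.08% to 14.7% (median 7.79%) in the 13 BAT libraries with more than 50 counts of Ckm, and 4.34% to 11.1% (median 7.10%) in the 14 SkM libraries. Of the other BAT libraries, control 3 held 1 count of Cox6a2 to 8 of Ckm and EX 4 held 10 to 20, which is 50% of Ckm. Cox6a2 had log2 fold changes of 3.01 in EX vs. control (adjusted p = 0.73) and 2.41 in CREX vs. CR (adjusted p = 0.69), and with the muscle score as a covariate these were 0.09 and 0.04. Atp5g1 rose from 4.95 CPM in control 3 to 45.4 CPM in CREX 3, and was between 4.95 and 9.41 CPM in the 5 libraries with the least Ckm. Its CR effect was 0.64 (adjusted p = 0.22), or 0.91 (adjusted p = 0.0292) without the 3 libraries of highest muscle score and 0.37 (adjusted p = 0.175) with the score as a covariate. The median member level relative to the control mean was 0.907 in EX 2, 0.898 in EX 3 and 0.938 in CREX 3, the lowest values among the BAT libraries.

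**Figure D5:**
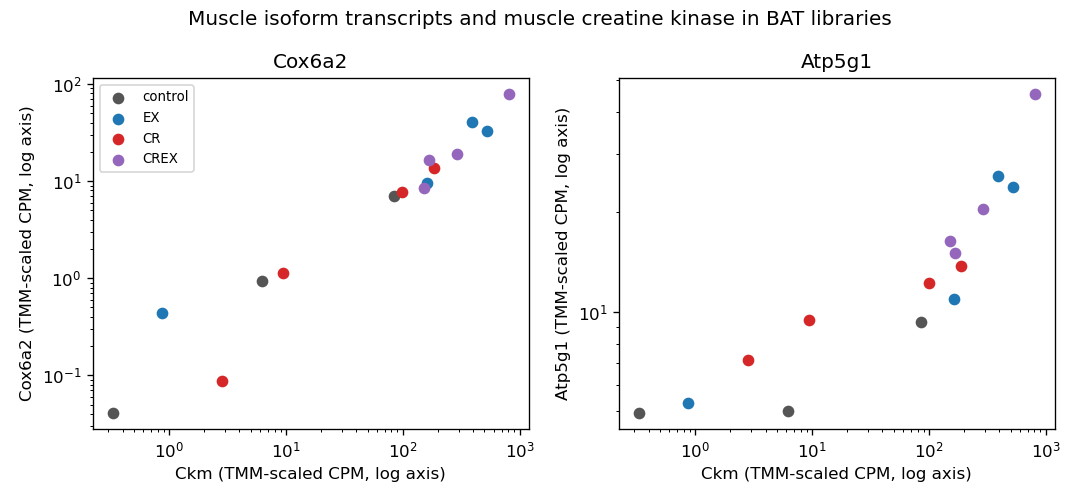
Cox6a2 and Atp5g1 (TMM-scaled CPM, log y axis) against Ckm (TMM-scaled CPM, log x axis) in each of the 15 BAT libraries, coloured by group. Cox6a2 is higher where Ckm is, from 0.0413 to 78.2 CPM, although EX 4 has more Cox6a2 than CR 1 at less Ckm, whereas Atp5g1 is between 4.95 and 9.41 CPM in the 5 libraries with the least Ckm.

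Other genes of the same machinery were read from lists beside the members. The libraries that stood apart in marker scores were kept in all of these list values. The 6 subunits of complexes III to V encoded by the mitochondrial genome (CYTB, COX1 to COX3, ATP6 and ATP8) fell in SkM, 5 of 6 in CR vs. control (median -0.77), 5 of 6 in CREX vs. EX (median -0.84) and 6 of 6 in the average effect (median -0.82), all as DEGs. Of all genes, 7.67%, 6.96% and 17% were called lower in these comparisons, in the same order. Downregulated DEGs made up 5.32%, 5.17% and 8.13% of all genes. CYTB, the core of complex III, fell by 0.84 and COX2, a catalytic subunit of complex IV, by 0.84 in the average effect. In BAT the only one called was COX1, the oxygen-binding subunit, which rose by 0.39 in CREX vs. EX (adjusted p = 0.0181) and by 0.24 in the average effect. There 3.71% and 15.9% of all genes were called higher. Falls of the mitochondrially encoded genes in SkM were thus larger at the median than those of the nuclear members (-0.35), a comparison of medians without a test.

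Assembly factors were read in the same way. In the average CR effect, 17% of all genes were called lower in SkM, and 15.9% were called higher and 17.5% lower in BAT. In the average CR effect of SkM, where 33.5% of all genes were called, 2 of 4 factors of complex II fell (Sdhaf2 by 0.30 and Sdhaf4 by 0.38), 2 of 6 of complex III (Uqcc1 by 0.55 and Bcs1l, which inserts the iron-sulfur protein, by 0.49), 7 of 23 of complex IV (among them the copper chaperone Sco2 by 0.47 and the COX1 translation factor Taco1 by 0.50) and 1 of 5 on the complex V list (Atpaf1, which assembles the F1 part, by 0.52). None of these lists had a member called higher in SkM. In BAT, where 33.4% of all genes were called, 2 of 6 factors of complex III fell (Uqcc1 by 0.14 and Uqcc2 by 0.22), 2 of 23 factors of complex IV rose (Cox10 by 0.23 and Cox18 by 0.15) and 2 fell (Taco1 by 0.32 and Coa4 by 0.51), 3 of 5 on the complex V list were called (Atpaf2 fell by 0.39, Tmem70 fell by 0.14 and Atpaf1 rose by 0.14), and 0 of 4 of complex II were called (edgeR), with 1 at an unadjusted p under 0.05. Of 4 tested subunits whose symbols lie outside the rule, Ndufa4l2 fell in both tissues, by 0.36 in BAT and 0.50 in SkM.

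Of 17 regulators of respiratory genes, 4 rose and 6 fell in the average CR effect of SkM, against 33.5% of all genes called. Ppargc1b, a coactivator of mitochondrial genes, fell by 1.60 (SE 0.14), Esrrg by 1.60 and Esrra by 0.48, both oestrogen-related receptors, and Tfam, which packages and transcribes mitochondrial DNA, by 0.26. Nrf1 (0.26), Ppard (0.26), Polrmt (0.28) and Pprc1 (0.23) rose. In BAT, against 33.4% of all genes called, 3 rose, namely Esrra (0.23), Ppard (0.25) and Polrmt (0.25), and 6 fell, among them the coactivator Ppargc1a by 0.82 (adjusted p = 0.0436) and Nrf1 by 0.24. Esrra and Nrf1 thus had called effects of opposite sign in the tissues. Of 12 enzymes of the citric acid cycle, 8 fell in SkM (median -0.26, against 17% of all genes called lower), for example Idh3g by 0.46, Dlst by 0.39 and Mdh2 by 0.38, whereas in BAT 3 rose and 2 fell, among them Sucla2 by 0.46. Of all genes, 15.9% were called higher and 17.5% lower in BAT.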

How the data were processed

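Libraries were grouped by the labels into control, CR, EX and CREX of BAT and SkM, 29 in all. The labels do not say whether libraries of a group came from separate mice, so p-values measure the spread between these libraries. Whether a BAT and an SkM library came from 1 mouse is not given either. The fits across tissues, that of the controls included, treated all libraries as independent. According to the study's methods, the authors trimmed reads with trim-galore, mapped them to mm10 with STAR (2.7.10a in the submitters' processing notes) and quantified genes with RSEM (1.2.28 in those notes). Per gene symbol the table deposited by the authors holds expected counts from RSEM without normalization, which were rounded to whole numbers here. Only 2 members (Cox7c and Uqcrc2) had any count that was not whole. The annotation used for counting and the use of strand are not given in the sources used here. Total counts were similar among libraries, and the limit on precision is the number of libraries.

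Count models were run with edgeR 4.0.16 under R 4.3.3, and with DESeq2 1.42.0 as the alternative tool. Tables, exact tests and figures were made in Python 3.11.15 using matplotlib 3.10.9, scipy 1.17.1, numpy 2.4.6 and pandas 2.3.3. Each comparison was fitted on its own 2 groups with TMM factors, the filterByExpr filter and edgeR's robust quasi-likelihood test, with Benjamini-Hochberg adjustment over all genes tested. Average effects and interactions came from 1 fit over the 4 groups of a tissue, and the tissue difference from 1 fit over all libraries. The SE is the size of the log2 fold change divided by the square root of F. The procedure was tested on simulated counts.

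Transcript lengths for isoform shares were matched for 47 members from GENCODE and positions for 45 from RefSeq. Lengths of Atp5g1, Sdhc and Cycs include long untranslated parts, and shares of the Atp5g genes are not reported. Isoform ratios used a pseudocount of 0.5 counts as an alternative.

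The members and all lists were chosen with earlier results of these data known. Every member may be named. Values by library are given for tissue isoforms, for up to 3 called members of smallest p per complex and comparison, and for DEGs, and from the other lists up to 3 called genes of smallest p per comparison. Examples were taken from within this rule, apart from Ckm, Nrf1, Pprc1, Coa4 and Ppargc1a, which were chosen after their values were seen. Alternatives were DESeq2, RLE size factors, other filters, 1 fit over all groups, a marker score as a covariate, a replicate block and leaving out each library. Removing the 3 BAT libraries with a muscle score above 8 and the 3 SkM libraries with a slow fibre score below 6, and leaving out each library in the tissue difference and the isoform ratios, were chosen after seeing the data.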

Additional observations from a re-analysis of the deposited data

Results flagged for a closer look

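In groups of 4 libraries, the gap of the highest or lowest library to its neighbour exceeded Dixon's critical value in 13 of the 233 groups tested, and chance gives such a gap in about 1 in 20 groups. BAT CR 2 was high in 5 of these, with 869.8 CPM of Uqcrq, 1268 CPM of Cox4i1, 1824 CPM of Cox6a1, 250.7 CPM of Atp5e and 578.9 CPM of Atp5o. BAT CREX 3, the library with most muscle transcripts, was low for Uqcrq (572.7 CPM) and high for the muscle isoform Cox6a2 (78.23 CPM). BAT CREX 1 was high for Cox4i1 (1086 CPM) and BAT EX 3 for Atp5j (108.6 CPM). In SkM, EX 4 was high for Cox7a2 (115.5 CPM) and Atp5d (522.5 CPM), and EX 2 was low for Cox7a2l (82.66 CPM) and Atp5k (34.77 CPM).

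The CR effect differed between the tissues, by the test of the difference itself (edgeR, adjusted p under the threshold), in 23 members, all with the lower effect in SkM. The log2 differences of SkM minus BAT were -0.83 for Atp5g3, -0.79 for Cox7a1, -0.72 for Sdhb, -0.65 for Uqcrq, -0.61 for Uqcrc1, -0.60 for Atp5j, -0.59 for Cox4i1 and -0.59 for Cycs. Next came Uqcrc2 with -0.56, Cyc1 with -0.55, Atp5sl with -0.54, Uqcr10 with -0.54, Cox5b with -0.52, Cox6c with -0.52, Atp5h with -0.47, Sdhc with -0.44 and Cox5a with -0.44. The smallest differences were those of Uqcrfs1 (-0.39), Atp5f1 (-0.38), Atp5d (-0.37), Atp5s (-0.33), Sdhd (-0.30) and Cox7a2l (-0.28).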

How the results depend on the processing

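With 3 or 4 libraries a group, counts of called members moved with small changes. Where no value is given beside a change, its cause was not tested. Here and above, some counts under an alternative stand without the share of all genes called in the same fit. For these, a change in the members cannot be told from a change over all genes. In BAT CR vs. control the 2 calls became 7 with DESeq2, 1 with RLE size factors, 1 without a filter, 0 with the replicate block and 4 with the muscle score as a covariate. In BAT CREX vs. EX the 2 became 4 with DESeq2 and 5 in 1 fit over all groups. The 0 of BAT CREX vs. CR and of the average EX effect in BAT became 5 each with DESeq2. In SkM CR vs. control the 2 became 4 with DESeq2 and 15 with the replicate block. In SkM CREX vs. EX the 24 became 6 with the replicate block, 0 with the slow fibre score as a covariate and 1 without the 3 libraries of lowest score, and the 26 of the average CR effect in SkM became 13 and 5. Without both sets of 3 libraries the 23 of the tissue difference became 7 and the 4 isoform ratios 0, where the smallest possible p rises to 0.00286 in BAT and 0.00714 in SkM.

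Leaving out 1 library at a time gave 0 to 3 calls in BAT CR vs. control, 1 to 2 in BAT CREX vs. EX, 0 to 3 in SkM CR vs. control, 5 to 38 in SkM CREX vs. EX, 7 to 16 for the average CR effect in BAT, 16 to 32 for that in SkM, 0 to 1 for the interaction in SkM, 31 to 42 for BAT control vs. SkM control, 19 to 29 for the tissue difference and 3 to 5 for the isoform ratios.

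Not all libraries of equal number deviated together, with correlations of -0.47 to 0.0021 in BAT CR vs. control, -0.11 to 0.50 in BAT CREX vs. EX, -0.02 to 0.31 in SkM CR vs. control and -0.12 to 0.21 in SkM CREX vs. EX, so the replicate block rests on a shared number only. In SkM CR vs. control 5 of 6 libraries correlated best with their own number. Of 2652 values followed under an alternative, 2214 kept their direction and their side of the threshold, 435 lost the call, 3 gained it and 0 changed direction. Members entered this count only where the main fit called them. Calls gained by other members, as given above, are therefore not in it. Depth was not the limit for most members, but Cox6a2 in BAT and Cox4i2 rest on few counts.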
